A study of Mus musculus with 8 samples.

Results

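The genes described here are 41 mouse counterparts of human neurodevelopmental risk genes, most of them linked to autism. They encode chromatin regulators, transcription factors, synaptic scaffolds and a few proteins of turnover and modification. They were taken by name from the count table, which holds 55367 genes, because the sodium channel gene Scn2a belongs to the same class of risk genes, and ion channels were left out. All 41 names were found. Of these, 36 had enough counts to be tested, and Dyrk1a, Bcl11a, Asxl3, Shank3 and Tbr1 did not.

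The cells were Neuro2a, a mouse neuroblastoma line, transfected for CRISPR activation (CRISPRa). Here a nuclease-dead Cas9 fused to an activation domain (sadCas9-VP64) is brought to a gene by a single guide RNA (sgRNA). The CRISPRa group received 750 ng of the sgRNA and 750 ng of the sadCas9-VP64 plasmid. The control group, called no sgRNA, received the sadCas9-VP64 plasmid without the guide, at an amount the sources used here do not state, so both groups carry the activator. Counts were analysed for 6 of the 8 samples listed, replicates 2, 3 and 5 of CRISPRa and replicates 2, 3 and 4 of no sgRNA. The labels do not say that replicates were separate cultures, so p-values measure the spread between these samples, which may be technical. The time of harvest and the share of transfected cells are not given in the sources used here. Neuro2a is a transformed line and stands in only partly for the cortical neurons in which these genes are usually studied.

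Many of these proteins act on chromatin. Remodelling ATPases slide or eject nucleosomes, histone methyltransferases and demethylases write and erase marks at enhancers and promoters, and adaptor proteins hold corepressor complexes at such sites. A smaller set works at the postsynaptic density, where scaffolds of the Shank, Homer and Dlg families anchor glutamate receptors.

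The libraries held 29739422 to 34248514 counts, of which the 41 genes took 0.574% ± 0.0117 in the CRISPRa group and 0.560% ± 0.0341 in the controls (SD, n = 3). No-sgRNA replicate 4 had the lowest share, 0.522%, and was the lowest control library for 23 of the 36 tested genes. Of 13 markers of sympathoadrenal neuroblastoma, 10 reached 1 CPM (the count scaled to library size, after TMM normalisation), and the whole list summed to 1549 to 1786 CPM with CRISPRa and 1826 to 1992 CPM without the guide. Markers of cortical projection neurons summed to 69.6 to 78.5 CPM and 65.1 to 67.5 CPM, with Neurod6 and Neurod2 at 0 counts throughout. Fibroblast markers summed to 14.6 to 21.4 CPM and 28.6 to 32.4 CPM, and astrocyte markers to 1.29 to 1.45 CPM and 1.72 to 2.26 CPM. These 4 of the 8 marker lists did not overlap between the groups, and their part in the results below was not tested. The 6 microglia and macrophage markers summed to at most 0.459 CPM, with Cx3cr1, P2ry12 and C1qa at 0. All 20 interferon-stimulated genes examined were higher with CRISPRa, with a median log2 fold change of 4.76. In bulk samples, fewer cells of a type and less RNA per cell cannot be told apart.

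Levels of different genes were compared per length, as CPM per kilobase of summed exon in the no-sgRNA libraries. Ctnnb1, which encodes beta-catenin, the effector of Wnt signalling, had the highest mean at 55.5 CPM per kilobase. Its values were 271, 266 and 254 CPM with CRISPRa and 268, 284 and 312 CPM without the guide. Ankrd11, a nuclear coregulator that binds histone deacetylases, followed at 53.3 CPM per kilobase, with 904, 921 and 924 CPM with CRISPRa and 968, 902 and 781 CPM without the guide. Kdm6b, a histone demethylase that removes a Polycomb mark, was at 51.6 CPM per kilobase, with 347, 383 and 334 CPM with CRISPRa and 369, 369 and 339 CPM without the guide. Per kilobase the control ranges of these 3 genes overlapped, so their order is not resolved. Cul3, Wac, Rai1 and Tcf20 came next at 34.5, 27.0, 26.0 and 23.2 CPM per kilobase.

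At the other end of the tested genes stood Katnal2, a katanin-like microtubule-severing protein, at 1.33 CPM per kilobase, with 5.98, 3.95 and 5.33 CPM with CRISPRa and 5.64, 4.65 and 5.91 CPM without the guide. Shank2, a postsynaptic scaffold, was at 0.699 CPM per kilobase, with 8.10, 9.77 and 9.03 CPM with CRISPRa and 6.26, 9.13 and 7.96 CPM without the guide. Myt1l, a neuronal zinc-finger factor, was lowest at 0.641 CPM per kilobase, although its control range lay inside that of Shank2. Of the 36 tested genes 16 were at 10 CPM per kilobase or more. The median of the 36 was 8.003, beside 5.21 over all tested genes. Of the 35 neighbouring pairs in the order, 23 had overlapping control ranges.

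**Figure D1:**
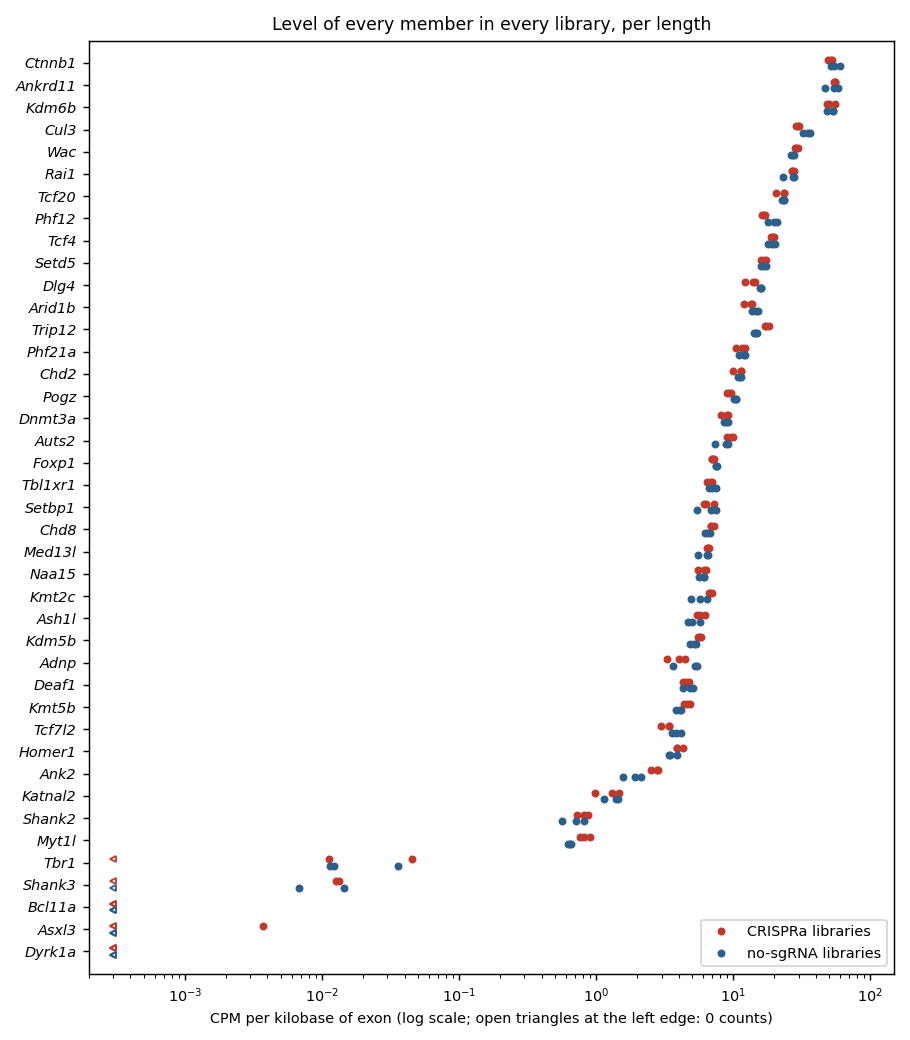
CPM per kilobase of exon (horizontal log axis) of each of the 41 genes, 1 point per library, CRISPRa in red and no sgRNA in blue, with open triangles at the left edge for 0 counts. The means of the tested genes in the no-sgRNA libraries run from 0.641 (Myt1l) to 55.5 (Ctnnb1), and Dyrk1a and Bcl11a have 0 counts in every library.

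Of the 5 untested genes, Tbr1, a T-box factor of deep-layer cortical neurons, had 0, 2 and 8 counts with CRISPRa and 6, 2 and 2 in the controls. Shank3, a scaffold at the core of the postsynaptic density, had 4, 0 and 4 counts against 0, 4 and 2. Asxl3, a Polycomb-associated protein, had 2, 0 and 0 counts against 0, 0 and 0. Bcl11a, a zinc-finger repressor of neuronal and blood lineages, and Dyrk1a, a dual-specificity kinase, had 0 counts in all 6 libraries. A count of 0 allows up to 3 counts, which is 0.0876 to 0.101 CPM depending on the library and covers counting error only. These values are too low to show a difference at this depth, and no fold change is given.

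The row of zeros at Dyrk1a extended to its neighbours. Dyrk1a (chromosome 16, 94570010 to 94695517, plus strand, GRCm38) lies among 6 consecutive annotated genes, from Gm31323 to Gm41505, that had 0 counts in all 6 libraries over 265 kb (94488777 to 94753438). They include Vps26c, which encodes a subunit of an endosomal sorting complex. On one side, Ttc3 had 3919, 3556 and 3095 counts with CRISPRa and 3323, 3149 and 4017 without the guide, and Pigp had 569 to 755 counts. On the other side, Kcnj6, whose span overlaps that of Gm41505, had 12 to 30 counts. No annotated exon of another gene overlaps those of Dyrk1a, and 0% of its 50-base words occur in transcripts of other genes. The cause of the zeros was not tested. The neighbours were chosen after their values were seen.

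**Figure D2:**
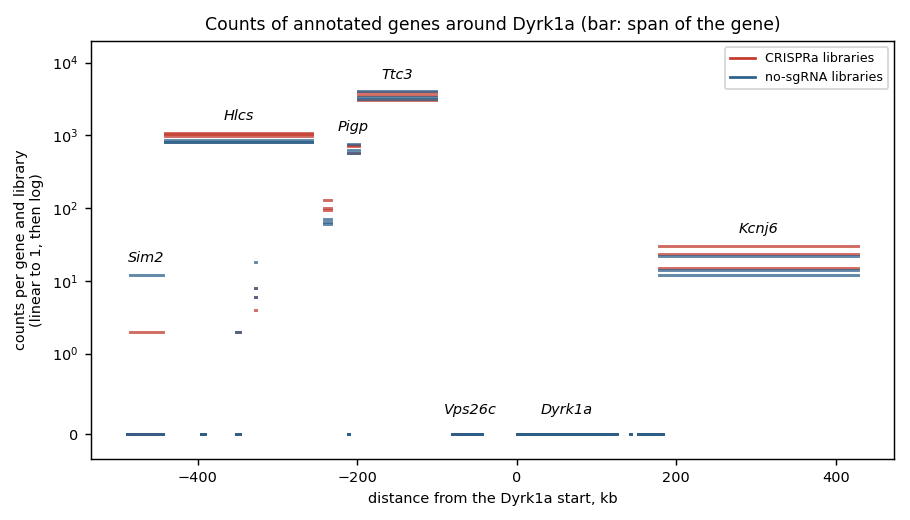
Counts per gene and library (vertical axis) of annotated genes within 500 kb of the Dyrk1a start (horizontal axis, distance in kb), with each gene drawn over its span. Ttc3 and Hlcs hold 805 counts or more in every library, while Vps26c and Dyrk1a lie at 0 in all 6.

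The comparison of the groups asked which of these genes differed between cells with and without the guide. Of the 36 tested genes, 6 passed an adjusted p of 0.05 (edgeR's quasi-likelihood test, Benjamini-Hochberg adjustment over all 15117 tested genes). Ank2, Trip12 and Kmt2c rose, and Dlg4, Phf12 and Cul3 fell. The 6 are 16.7% of the tested set, near the 18.7% of all tested genes that passed. Of all tested genes 9.47% were called higher and 9.25% lower. The differences of the 6 called genes of the set were small, from 1.17-fold to 1.44-fold. Of the other 30, 7 had an unadjusted p under 0.05 (edgeR). Together with the called genes these are 13 of 36, beside 4725 of all 15117 tested genes.

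Over the 36 genes the median log2 fold change was -0.0021, beside -0.0071 over all tested genes, with 18 positive and 18 negative values. The median absolute log2 fold change was 0.12, against 0.20 over all tested genes, and 17 of the 36 lay between -0.1 and 0.1. Groups did not overlap for 15 genes (41.7%), 9 higher and 6 lower, where the background was 36.4% in all, 17.7% higher and 18.7% lower.

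**Figure D3:**
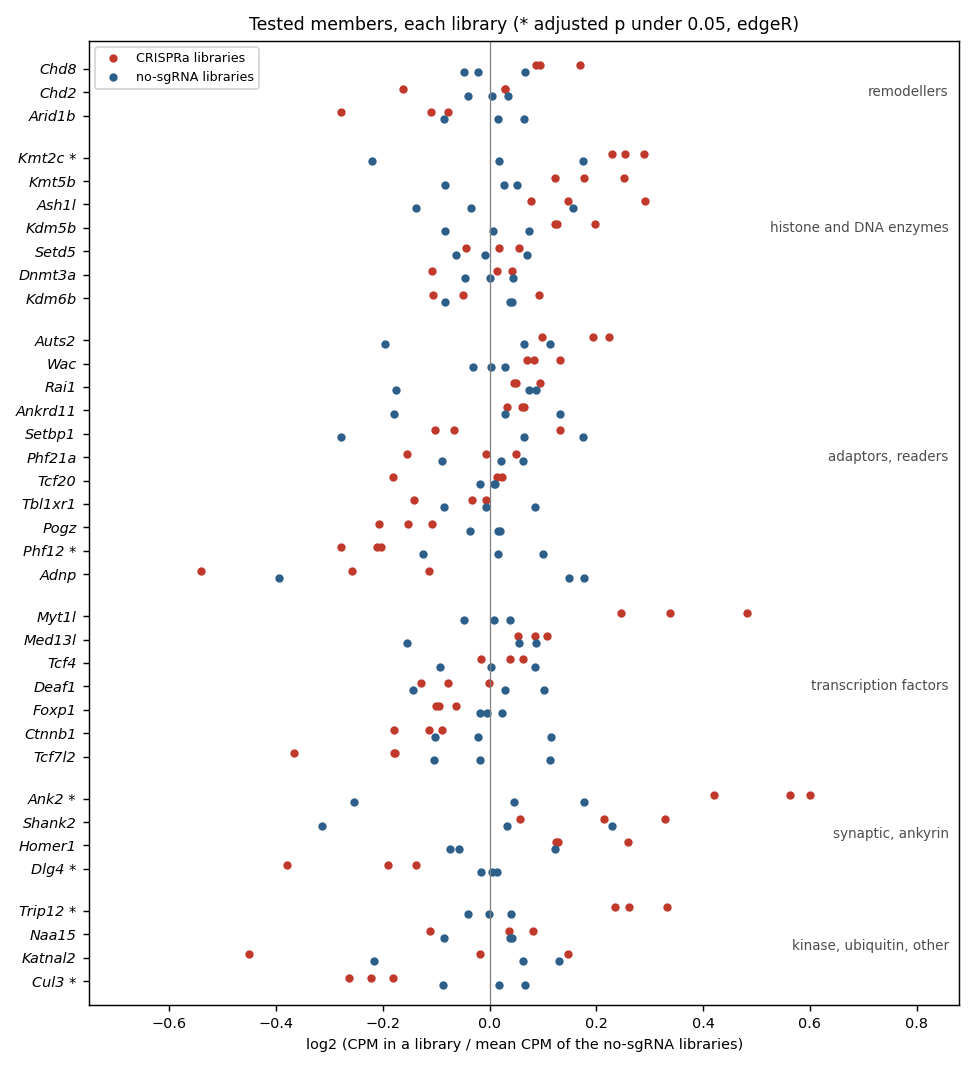
CPM of each tested gene in each library relative to its mean in the no-sgRNA libraries (log2, horizontal axis), grouped by role, CRISPRa in red and no sgRNA in blue. Asterisks mark the 6 genes with an adjusted p under 0.05, and for each of these the red and blue points do not overlap.

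Among the synaptic genes, Ank2 rose and Dlg4 fell. Ank2 encodes ankyrin-B, an adaptor that ties channels and adhesion molecules to the spectrin skeleton. It had 88.9, 98.1 and 101 CPM in replicates 2, 3 and 5 of CRISPRa and 75.1, 68.6 and 55.7 CPM in replicates 2, 3 and 4 of no sgRNA. All 3 CRISPRa values were above the controls, of which replicate 4 was the lowest. The log2 fold change was 0.53 (SE of 0.0962, adjusted p of 0.00148 by edgeR), and 0.29 (adjusted p of 0.0105 by edgeR) once each library's trend with exon length was removed. Ank2 (chromosome 3, 126921612 to 127499350, minus strand) has 35510 bases of summed exon, the most of the 41 genes.

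Dlg4 encodes the main membrane-associated guanylate kinase of excitatory synapses. It had 192, 185 and 162 CPM with CRISPRa and 213, 208 and 211 CPM without the guide. The controls lay close together above the CRISPRa values, of which replicate 5 was the lowest. The log2 fold change was -0.23 (SE of 0.0694, adjusted p of 0.0302 by edgeR). Homer1, which links metabotropic glutamate receptors to Shank proteins, did not pass, at 48.2 ± 2.60 against 42.8 ± 3.29 CPM (SD, n = 3, edgeR adjusted p 0.176), and counts per gene do not separate its short isoform. For Shank2 the values were 8.97 ± 0.839 against 7.78 ± 1.44 CPM (SD, n = 3, edgeR adjusted p 0.428). Of 15 other postsynaptic scaffold genes, 12 were tested and 0 passed by edgeR, beside 18.7% of all tested genes. The list had 1 gene at an unadjusted p under 0.05 and a median log2 fold change of 0.00078.

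The ubiquitin ligase genes Trip12 and Cul3 also moved apart. Trip12 encodes a HECT-type ligase that transfers ubiquitin directly. It had 283, 303 and 288 CPM with CRISPRa and 247, 240 and 234 CPM without the guide, with a narrow range in each group. The log2 fold change was 0.28 (SE of 0.0606, adjusted p of 0.00537 by edgeR). With the exon length trend removed it was 0.15 and no longer passed (adjusted p of 0.0939 by edgeR). Cul3, the scaffold of ligases that recruit their substrates through BTB proteins, had 144, 148 and 140 CPM against 170, 158 and 176 CPM. Its highest CRISPRa library was below its lowest control. The log2 fold change was -0.22 (SE of 0.0645, adjusted p of 0.0263 by edgeR). Naa15, the auxiliary subunit of the N-terminal acetyltransferase NatA, was at 92.7 ± 6.34 against 92.5 ± 4.57 CPM (SD, n = 3, edgeR adjusted p 0.976). Katnal2 had an edgeR adjusted p of 0.815. Of 11 NatA and CUL3 partners, 10 were tested and 1 fell (10%, beside 18.7% of all tested genes). It was Naa10, the catalytic subunit that Naa15 anchors, at 18.0 ± 0.896 against 24.9 ± 3.11 CPM (SD, n = 3), which is a log2 difference of -0.47 (SE of 0.111, adjusted p of 0.00840 by edgeR).

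Of the 7 genes for histone and DNA modifying enzymes and their relatives, Kmt2c rose and no other passed. That was 14.3% of them, beside 18.7% of all tested genes. Kmt2c encodes a histone methyltransferase that marks enhancers. It had 138, 141 and 135 CPM with CRISPRa and 130, 117 and 99.1 CPM without the guide. The controls were the more scattered, with replicate 4 again lowest. The log2 fold change was 0.26 (SE of 0.0847, adjusted p of 0.0459 by edgeR). With the exon length trend removed it was 0.11 and did not pass (adjusted p of 0.280 by edgeR). Kmt5b, a histone methyltransferase of constitutive heterochromatin, was at 67.8 ± 3.09 against 59.6 ± 2.92 CPM (SD, n = 3, edgeR adjusted p 0.0972). Kdm5b, a demethylase acting at promoters, was at 93.9 ± 2.78 against 84.7 ± 4.60 CPM (SD, n = 3, edgeR adjusted p 0.151). For both genes the groups did not overlap, without passing the test.

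Ash1l, a SET-domain methyltransferase, was at 85.9 ± 6.54 against 76.1 ± 7.95 CPM (SD, n = 3, edgeR adjusted p 0.177). The log2 fold changes of Setd5, a SET-domain protein, Dnmt3a, the de novo DNA methyltransferase, and Kdm6b were 0.010, -0.016 and -0.018. The median of the 7 genes was 0.15. Among 18 other genes of the KMT2 complexes and related demethylases, 1 rose and 1 fell (11.1%, beside 18.7% of all tested genes). Kmt2a, a methyltransferase of the same family as Kmt2c, was at 125 ± 7.18 against 92.7 ± 22.6 CPM (SD, n = 3), which is a log2 difference of 0.43 (SE of 0.129, adjusted p of 0.0296 by edgeR). Dpy30, a shared subunit of these complexes, fell with a log2 fold change of -0.38 (SE of 0.103, adjusted p of 0.0174 by edgeR). Of 11 other DNA methylation genes, 1 rose and 3 fell (36.4%, beside the same 18.7%). The methyl-CpG binding gene Mbd2 rose, with a log2 fold change of 0.25 (SE of 0.0753, adjusted p of 0.0327 by edgeR). Uhrf1, which directs maintenance methylation after replication, had the largest decrease, at 80.6 ± 4.32 against 131 ± 6.17 CPM (SD, n = 3), which is a log2 difference of -0.70 (SE of 0.0689, adjusted p of 5.24e-06 by edgeR).

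None of the 3 remodeller genes passed (edgeR), beside 18.7% of all tested genes, with 1 at an unadjusted p under 0.05. Chd8, a helicase that binds many promoters and restrains beta-catenin, had 114, 120 and 114 CPM against 112, 106 and 104 CPM. Its groups lay side by side without overlap, and the log2 fold change was 0.12 (SE of 0.0650, adjusted p of 0.237 by edgeR). Chd2, a related helicase, was at 157 ± 11.7 against 160 ± 4.15 CPM (SD, n = 3, edgeR adjusted p 0.795), and 14.2% of its exonic bases are also annotated to 1810026B05Rik on the same strand. Arid1b, a DNA-binding subunit of the BAF remodelling complex, was at 165 ± 12.1 against 183 ± 9.64 CPM (SD, n = 3, edgeR adjusted p 0.154). Among 25 other BAF subunits 4 fell and 0 rose, so 16% were called, beside 18.7% of all tested genes. The largest decrease was in Dpf1, a subunit typical of neurons, at 8.58 ± 0.598 against 14.5 ± 2.65 CPM (SD, n = 3), which is a log2 difference of -0.76 (SE of 0.147, adjusted p of 0.00237 by edgeR). Of 7 other CHD genes, 1 passed (14.3%, beside 18.7% of all tested genes). It was Chd9, which rose with a log2 fold change of 0.29 (SE of 0.0789, adjusted p of 0.0194 by edgeR).

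Of the 12 chromatin-bound adaptors, readers and corepressors, 11 were tested and Phf12 fell. No other passed, so 9.09% of those tested were called, beside 18.7% of all tested genes. Phf12 encodes a PHD-finger subunit of a SIN3 deacetylase complex. It had 79.1, 82.9 and 83.3 CPM with CRISPRa and 97.0, 103 and 87.9 CPM without the guide. The CRISPRa values were close together and below every control. The log2 fold change was -0.23 (SE of 0.0730, adjusted p of 0.0389 by edgeR). Exons of Dhrs13os on the opposite strand cover 10.8% of its exonic bases, and whether counting used strand is not given in the sources used here. Pogz, a zinc-finger protein that binds heterochromatin protein, had 82.9, 86.1 and 88.9 CPM against 97.2, 96.9 and 93.4 CPM. Its groups did not overlap, but the log2 fold change of -0.16 (SE of 0.0654, adjusted p of 0.114 by edgeR) did not pass.

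Adnp, a homeodomain protein that partners with the remodeller Chd4, had the lowest log2 fold change of the set, -0.29 (SE of 0.146, adjusted p of 0.187 by edgeR). It had 17.6, 21.4 and 23.7 CPM with CRISPRa and 28.4, 29.0 and 19.5 CPM without the guide. No-sgRNA replicate 4 lay inside the CRISPRa range, and the other controls lay above it. Without that library Adnp passed, at -0.46 on the log2 scale (edgeR adjusted p 0.0286). It also passed in the libraries numbered 2 and 3 alone, at -0.55 (edgeR adjusted p 0.00117), and in none of the 8 alternatives that kept all 6 libraries. The level of Adnp is uncertain, because 82.1% of its exonic bases are also annotated to Gm20716 on the same strand, which had 0 counts in every library.

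The remaining adaptors had log2 fold changes from -0.060 (Tbl1xr1, a subunit of NCoR corepressors, at 60.3 ± 2.93 against 62.9 ± 3.74 CPM) to 0.17 (Auts2, of a noncanonical Polycomb complex, at 219 ± 9.89 against 194 ± 21.7 CPM). Ankrd11 was at 916 ± 10.9 against 884 ± 95.1 CPM and Rai1, a nucleosome-binding regulator, at 261 ± 4.97 against 249 ± 24.8 CPM (SD, n = 3). In Auts2, Ankrd11 and Rai1 the controls were more scattered than the CRISPRa libraries, with no-sgRNA replicate 4 the lowest. Wac, an adaptor for histone ubiquitination, was at 171 ± 3.85 against 160 ± 3.33 CPM (SD, n = 3, edgeR adjusted p 0.308). Tcf20, a coregulator related to Rai1, was at 185 ± 14.4 against 191 ± 1.95 CPM. Phf21a, a reader in a histone demethylase complex, was at 98.2 ± 7.06 against 101 ± 5.37 CPM. Setbp1, which binds the SET oncoprotein, was at 65.3 ± 5.83 against 65.6 ± 10.3 CPM. Of 11 Mediator kinase and NCoR partners, 10 were tested and 1 passed (10%, beside 18.7% of all tested genes). It was Med12, which rose with a log2 fold change of 0.20 (SE of 0.0639, adjusted p of 0.0367 by edgeR).

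Of the 9 transcription factors and coactivators, 7 were tested and 0 passed by edgeR, beside 18.7% of all tested genes. At an unadjusted p under 0.05 were 2, Myt1l and Tcf7l2. Myt1l, which represses non-neuronal genes, had 11.3, 10.7 and 12.5 CPM with CRISPRa and 8.69, 9.23 and 9.04 CPM without the guide. The groups did not overlap, and the log2 fold change was 0.36 (SE of 0.130, adjusted p of 0.0691 by edgeR). Tcf7l2, a partner through which beta-catenin reaches DNA, had 30.3, 30.3 and 26.6 CPM against 31.9, 33.9 and 37.1 CPM. Its CRISPRa values were all below the controls, and the log2 fold change was -0.24 (SE of 0.0936, adjusted p of 0.0921 by edgeR).

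Ctnnb1 had a log2 fold change of -0.13 (SE of 0.0677, adjusted p of 0.220 by edgeR), with 14.6% of its exonic bases opposite exons of Ulk4. Foxp1, a forkhead repressor, was at 97.6 ± 1.37 against 104 ± 1.53 CPM (SD, n = 3, edgeR adjusted p 0.381), without overlap of the groups. Tcf4, a basic helix-loop-helix factor, was at 535 ± 14.6 against 524 ± 32.3 CPM. Med13l, of the Mediator kinase module, was at 101 ± 1.90 against 95.6 ± 8.52 CPM, and Deaf1, a DNA-binding regulator, at 19.8 ± 0.887 against 20.8 ± 1.78 CPM (SD, n = 3). Of 14 beta-catenin targets and partners, 12 were tested, 2 rose and 1 fell (25% of those tested, beside 18.7% of all tested genes). Tcf7, another DNA-binding partner of beta-catenin, was at 17.2 ± 0.437 against 11.2 ± 1.88 CPM (SD, n = 3), which is a log2 difference of 0.63 (SE of 0.133, adjusted p of 0.00443 by edgeR). Nkd1, a feedback inhibitor of Wnt signalling, had 11, 9 and 15 counts with CRISPRa and 46, 31 and 26 without the guide, a log2 fold change of -1.66 (SE of 0.485, adjusted p of 0.0264 by edgeR).

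Genes of this set are long, and length bears on how their small shifts are read. The summed exon length of the 36 tested genes had a median of 12925.5 bases, against 3927 over all tested genes, and all 36 were above that value. Their genomic span had a median of 112 kb against 18.7 kb, with Auts2 the longest. When all tested genes were divided into 5 equal groups by exon length, the median log2 fold change moved from -0.091 in the shortest to 0.065 in the longest. Of the longest group 16.1% passed as higher and 6.88% as lower, and of the shortest 3.11% and 8.93%. The longest group holds 28 of the 36 genes, whose median was 0.041. The 6 in the next group had a median of -0.17, where all tested genes of that group had 0.0094. Across the 36 genes exon length and log2 fold change had a Spearman rho of 0.65, and across all tested genes 0.15. These are descriptions across genes, which share libraries and are not independent replicates.

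**Figure D4:**
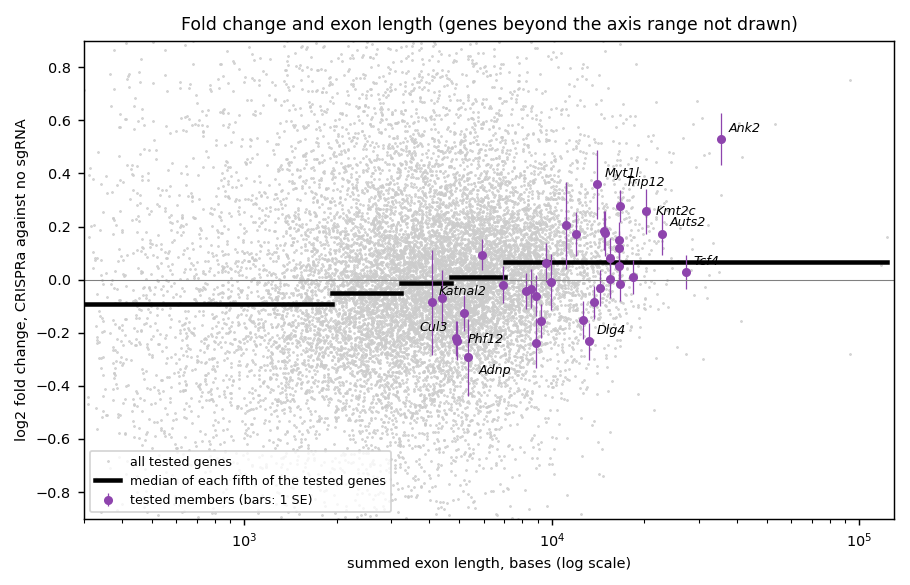
Log2 fold change, CRISPRa against no sgRNA (vertical axis), and summed exon length in bases (horizontal log axis) of all tested genes in grey and of the 36 tested autism-linked genes in purple with 1 SE. Black lines give the median of each of 5 equal groups by length, from -0.091 in the shortest to 0.065 in the longest, and genes beyond the axis range are not drawn.

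When each library's trend with exon length was removed, 8 of the 36 genes (22.2%) passed, 1 higher and 7 lower, where 19.4% of all tested genes passed, 7.91% higher and 11.5% lower. The share of higher genes among those called was then 12.5%, against 50% without the correction. Over all tested genes 1196 of the 2931 called were then higher, against 1431 of 2829 without the correction. The median log2 fold change of the 36 became -0.094, with 11 positive and 25 negative values, beside -0.033 over all tested genes. A smaller trend remained, since medians of all tested genes ran from -0.057 in the shortest of the 5 length groups to -0.012 in the longest. Ank2 still passed as higher. Trip12 and Kmt2c did not pass. Dlg4, Phf12 and Cul3 passed as lower, with log2 fold changes of -0.33, -0.25 and -0.24.

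With the trend removed 4 further genes passed as lower. They were Arid1b, at -0.24 (SE of 0.0656, adjusted p of 0.0162 by edgeR), Pogz, at -0.23 (SE of 0.0637, adjusted p of 0.0197 by edgeR), Tcf7l2, at -0.31 (SE of 0.0991, adjusted p of 0.0397 by edgeR), and Foxp1, at -0.19 (SE of 0.0638, adjusted p of 0.0468 by edgeR). The correction lowered the estimate of each of the 36 genes. Of the genes named from the functional lists, Chd9 and Med12 were no longer called in this fit.

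Results with 1 library left out differed among the 6 genes. These fits hold fewer libraries, and 12.8% to 16.2% of all tested genes passed in them, beside 18.7% with all 6 libraries. Ank2 and Trip12 passed in each of the 6 fits that left out 1 library, with log2 fold changes of 0.42 to 0.63 and 0.26 to 0.31. Kmt2c passed only without no-sgRNA replicate 2 (edgeR adjusted p 0.0133, otherwise 0.0610 to 0.139), and without no-sgRNA replicate 4 its log2 fold change was 0.16. Dlg4 passed only without CRISPRa replicate 2 (edgeR adjusted p 0.0361, otherwise 0.0541 to 0.116). Cul3 passed only without no-sgRNA replicate 3 (edgeR adjusted p 0.0314, otherwise 0.0660 to 0.0982). Phf12 passed only without no-sgRNA replicate 4 (edgeR adjusted p 0.0132, otherwise 0.0615 to 0.177). Over the 6 fits log2 fold changes were 0.16 to 0.35 for Kmt2c, -0.27 to -0.16 for Dlg4, -0.26 to -0.19 for Cul3 and -0.29 to -0.18 for Phf12. With scaling by library size alone Phf12 had an edgeR adjusted p of 0.0634, and with upper-quartile scaling Kmt2c had 0.0527.

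The authors' deposited table compares 8 samples, which include the 6 analysed here, so it is no independent measurement. A positive sign there was taken to mean higher with CRISPRa, since the 20 interferon-stimulated genes are all positive. The authors' deposited table gives an adjusted p for 36 of the 41 genes, and 10 of these (27.8%) are under 0.05, 5 higher and 5 lower. Among all genes of the authors' deposited table that have an adjusted p, 28.6% are, 14.8% higher and 13.8% lower. Ank2 has a log2 fold change of 0.47 (adjusted p 4.65e-05) and Trip12 of 0.28 (adjusted p 1.31e-07) in the authors' deposited table. Dlg4 is at -0.13 (adjusted p 0.0455), Phf12 at -0.22 (adjusted p 0.00424) and Cul3 at -0.16 (adjusted p 0.0103) in the authors' deposited table. Kmt2c, at 0.13 (adjusted p 0.328), is not past the threshold in the authors' deposited table. It adds Adnp at -0.44 (adjusted p 0.00302), Pogz at -0.17 (adjusted p 0.00469), Myt1l at 0.31 (adjusted p 0.0200), Kdm5b at 0.15 (adjusted p 0.0289) and Kmt5b at 0.15 (adjusted p 0.0441), again from the authors' deposited table.

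**Figure D5:**
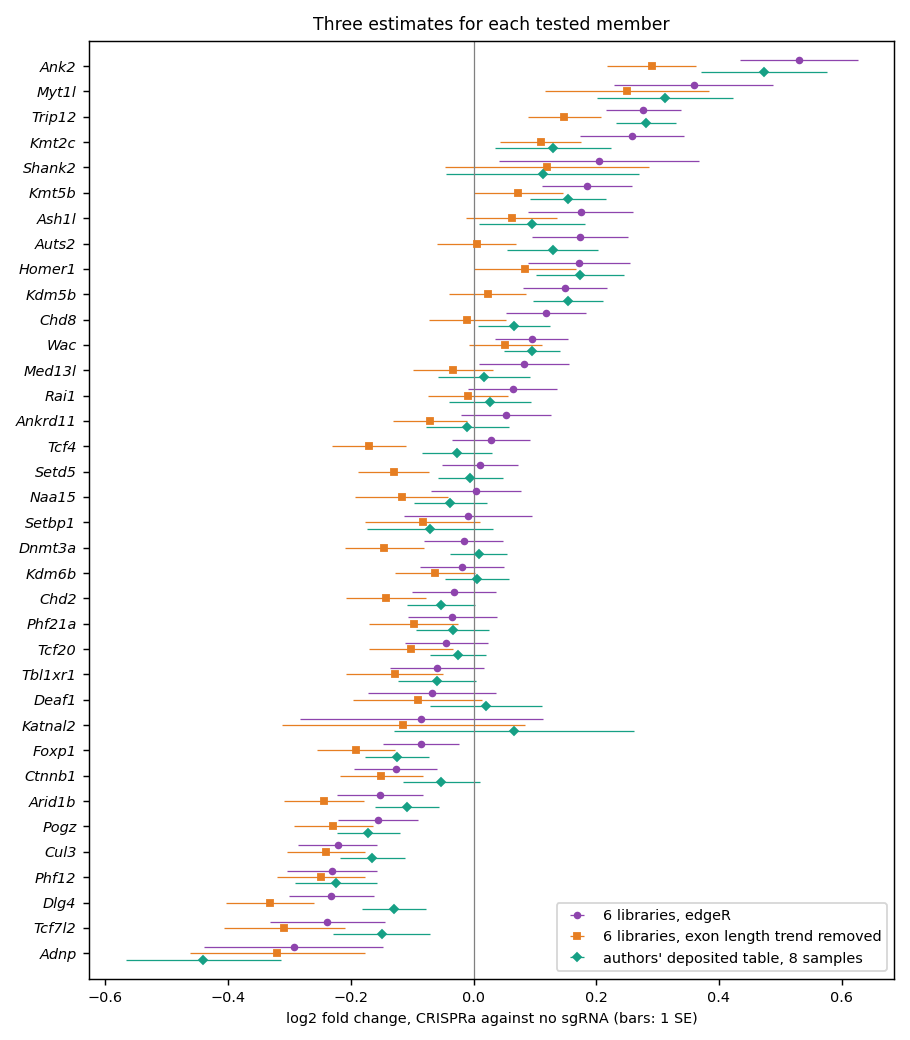
Log2 fold change, CRISPRa against no sgRNA, with 1 SE for each of the 36 tested genes, from the 6 libraries (purple circles), from the same libraries with the exon length trend removed (orange squares) and from the authors' deposited table of 8 samples (green diamonds). The orange value lies to the left of the purple one for all 36 genes, and Ank2 has the highest value in each of the 3 estimates, 0.53, 0.29 and 0.47.

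Promoter sequence was read for short motifs, as a feature that the choice of genes did not use. RefSeq promoters (250 bases before to 50 after a start, GRCm38.p6) matched 31 of the 41 genes, with 52 starts. Exact matches were sought on both strands for the GC box GGGCGG, the E-box CACGTG, the TCF/LEF site CTTTGAT and, by its usual core with a spacer of any bases, the interferon-stimulated response element. A GC box was present for 26 of the 31 genes, among them the untested Dyrk1a, Shank3, Tbr1 and Bcl11a. It occurred at 33 of the 52 starts. Of tested genes with a promoter 67.2% have one in at least 1 start, and of all 32851 promoters 35.7% do. The set had 52 starts for 31 genes and tested genes 13646 for 10671, so shares per gene are not directly comparable. An E-box was found for 2 of the 31 genes, Naa15 and Dnmt3a, where 11.4% of tested genes with a promoter and 7.15% of all promoters hold one. The TCF/LEF letters were found for 0 of the 31, where 3.12% of those genes and 3.73% of all promoters hold them.

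The 150 bases before the start are shown for Kmt2c and Trip12, which were higher, and for Cul3, which was lower, to set called genes of both directions side by side. These 3 of the 6 called genes were chosen after their letters were seen. Capitals mark GC boxes on either strand, overlapping matches included. The windows are chr5:25498784-25498933 (Kmt2c), chr1:84839305-84839454 (Trip12) and chr1:80340691-80340840 (Cul3), all on the minus strand and written 5′ to 3′.
Kmt2c: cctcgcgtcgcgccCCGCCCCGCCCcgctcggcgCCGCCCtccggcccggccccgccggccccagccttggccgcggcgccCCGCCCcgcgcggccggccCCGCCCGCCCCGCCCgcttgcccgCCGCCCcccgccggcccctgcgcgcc
Trip12: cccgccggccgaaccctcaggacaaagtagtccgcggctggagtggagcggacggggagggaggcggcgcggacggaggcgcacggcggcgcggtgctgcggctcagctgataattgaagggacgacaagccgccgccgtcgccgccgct
Cul3: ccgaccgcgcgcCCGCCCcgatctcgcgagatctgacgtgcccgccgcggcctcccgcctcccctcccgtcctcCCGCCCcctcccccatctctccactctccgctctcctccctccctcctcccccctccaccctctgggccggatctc
Kmt2c has 8 GC boxes in its window, Cul3 has 2 and Trip12 has 0. In the same window the 4 listed starts of Ank2 and the 1 of Phf12 have 0, and the 3 of Dlg4 have 0, 0 and 1. Windows with and without the motif thus occur among the genes that rose and among those that fell.

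The interferon motif was present for 1 of the 31 genes, Homer1, where 3.61% of tested genes with a promoter and 3.44% of all promoters hold it. The match begins 247 bases before the second listed start (chr13:93307784-93307806, plus strand), with the motif in capitals.
Homer1: ctgGAAAAGGAAAagaacagctg
Homer1 had a log2 fold change of 0.17 (SE of 0.0836, adjusted p of 0.176 by edgeR), while the interferon-stimulated genes were higher in the same libraries. A match of letters is a description and not a measured binding site.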

How the data were processed

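Poly(A)-enriched RNA of the 2 groups was sequenced. The deposited count table holds unnormalised read counts per gene with the column layout of featureCounts, per the file headers, and STAR 2.5.1b, featureCounts, DESeq2, R 4.1.2 and the build mm10 are named in the submitters' processing notes. Strand use, annotation and the treatment of multi-mapping reads are not given in the sources used here. The authors' deposited table of 20581 genes has the columns of a DESeq2 result, per the file headers: a mean normalised signal, a log2 fold change with its SE, a score (the Wald statistic) and p-values. The signal and the score were not printed.

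Genes were kept with filterByExpr (15117 genes), scaled with TMM and tested with edgeR 4.0.16 (R 4.3.3) in 1 quasi-likelihood fit over 6 libraries, with Benjamini-Hochberg adjustment. A gene was called at an adjusted p under 0.05. The SE is the absolute log2 fold change divided by the square root of F. Alternatives used DESeq2 1.42.0, limma 3.58.1, other scaling, filters and thresholds, each library left out, and removal of each library's lowess trend (span 0.2) with summed exon length as given in the count table. Coordinates are those of the count table (GRCm38).

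The genes and lists were chosen with earlier results of these data known. Every gene of the set is named with group means or counts, or with every library's value for those past the threshold and at both ends of the order of levels. Genes near the threshold or with doubtful counts also got every library's value. In each functional list the called genes with the largest increase and decrease are named. For the interferon list, used as background, the count is given instead. Replicate numbers 2 and 3 occur in both groups, and the labels do not say that they pair samples. No correction was made for transfected share or cell mixture.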

Additional observations from a re-analysis of the deposited data

How the results depend on the processing

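Of the 8 alternatives that kept all 6 libraries, Ank2, Dlg4 and Cul3 passed in 8, Trip12 and Phf12 in 7 and Kmt2c in 6. In 3 further fits that kept 4 libraries, without CRISPRa replicate 5 and no-sgRNA replicate 4, Kmt2c passed in 2 and the other 5 in 3. Of the 36 tested genes, 15 changed sign in at least 1 of 17 alternatives, and all 15 were uncalled with all libraries. Chd2, Tcf4 and Ankrd11 among them each passed in 1 fit of 4 libraries, as lower.

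At an adjusted p of 0.01, 2 genes of the set passed (0 lower) and 1417 of all tested genes (9.37%). At 0.1, 9 passed, 5 higher and 4 lower, beside 25.5% of all tested genes. Leaving out each library gave 2 to 4 called genes (0 to 2 lower), beside 12.8% to 16.2% of all tested genes, and a median log2 fold change of -0.018 to 0.044. With the exon length trend removed 1 was higher and 7 were lower, and the median was -0.094.

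The replicate block was fitted on the 4 libraries numbered 2 and 3. Whether the numbers pair the samples is not given by the labels. Deviations of same-numbered libraries from their group means correlated at -0.00459 and -0.0256 over 15117 genes. With so few libraries these values cannot decide whether samples were paired. With the block 8 genes passed, 5 of them lower, beside 20.7% of all tested genes (10.2% lower). In the same 4 libraries without it 8 passed, 5 of them lower, beside 18.5% (9.08% lower). Adnp was among the lower genes, at -0.56 with the block, -0.55 without it and -0.58 with the block and the length trend removed (adjusted p 2.65e-05, 0.00117 and 8.30e-07 by edgeR). With the block and the length trend removed 11 genes passed (9 lower), beside 23.4% of all tested genes (13.7% lower), and the median was -0.074. The lower genes then included Chd2, Tcf4 and Ankrd11 (adjusted p 0.0201, 0.0167 and 0.0128 by edgeR), which no other alternative called. Tcf4 and Ankrd11 had positive log2 fold changes, 0.028 and 0.053, in the fit of 6 libraries without block or length correction.

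With the length trend removed calls moved in 5 of the 9 functional lists, from 1 to 0 for other CHD genes, from 1 to 2 for NatA and CUL3 partners, from 4 to 5 for DNA methylation, from 3 to 4 for beta-catenin and from 1 to 0 for Mediator and NCoR partners. Leaving out each library gave 2 to 4 calls for BAF, 0 to 2 for other CHD, 0 to 2 for KMT2, 2 to 4 for DNA methylation, 1 to 3 for beta-catenin and 0 to 1 for Mediator and NCoR genes.

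Log2 fold changes that changed sign were, with the length trend removed, Chd8 -0.010, Setd5 -0.13, Naa15 -0.12, Tcf4 -0.17, Med13l -0.034, Ankrd11 -0.071 and Rai1 -0.0094. With the replicate block they were Setd5 -0.023, Naa15 -0.015, Tcf20 0.025, Med13l -0.0013, Ankrd11 -0.033, Phf21a 0.035, Rai1 -0.031, Tbl1xr1 0.026 and Dnmt3a 0.0067. In the same 4 libraries without the block they were Setd5 -0.023, Naa15 -0.015, Tcf20 0.025, Med13l -0.0013, Ankrd11 -0.034, Phf21a 0.034, Rai1 -0.031, Tbl1xr1 0.026 and Dnmt3a 0.0066. With the block and the length trend removed they were Setd5 -0.11, Naa15 -0.089, Tcf4 -0.12, Med13l -0.075, Ankrd11 -0.11 and Rai1 -0.081. Setbp1 had 0.0057 with library-size scaling, 0.0039 with the CPM filter and 0.0014 with limma-voom. Leaving out each library gave Chd2 -0.056 to 0.040, Kdm6b -0.069 to 0.031, Setd5 -0.020 to 0.048, Setbp1 -0.13 to 0.086, Naa15 -0.038 to 0.070, Katnal2 -0.21 to 0.075, Tcf4 -0.016 to 0.071, Tcf20 -0.072 to 0.027, Ankrd11 -0.029 to 0.12, Phf21a -0.078 to 0.029, Rai1 -0.017 to 0.11 and Dnmt3a -0.038 to 0.035. The cause of these changes was not tested. The SE of the 36 genes ran from 0.0600 to 0.198, which limits what can be read from shifts under 0.1.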
